A study of Taeniopygia guttata with 2 samples.

Results

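The genes described here are those that zebra finch cells use to enter and complete mitosis, with the kinesin and centromere families to which many of them belong. They were chosen by name: every gene of the deposited table whose symbol starts with CENP, KIF, AURK, BUB, PLK, NCAP, CDC2, CCNA or CCNB, together with CDK1, UBE2C, TOP2A, NDC80, NUF2, CKS2, ENSTGUG00000007339 (BUB1) and ENSTGUG00000021193 (MKI67). The rule found 66 of 20511 genes. They were sorted by role into 25 core mitotic genes, 9 inner centromere genes, 16 other kinesins and 16 other members. Of the 38 core symbols sought, 13 matched no symbol of the table, and CCNB1, AURKB and BUB1B are among those not analysed here.

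At mitosis the cyclin-dependent kinase CDK1, with its A- and B-type cyclins, starts chromosome condensation by condensin (the NCAP proteins) and topoisomerase, and Polo and Aurora kinases build the spindle. Each chromosome is tied to the spindle at the kinetochore. CENP proteins of the inner kinetochore, whose genes are listed here as inner centromere genes, hold the NDC80 complex that grips microtubules. The BUB proteins delay division until every chromosome is attached, after which CDC20 and UBE2C direct destruction of the cyclins. Transcripts of these genes build up as cells approach division, so their level in a population is widely read as a measure of cycling, whereas many other kinesins carry cargo along microtubules in cells that do not divide. The roles named for single genes are those known for the mammalian proteins.

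The libraries were made by single-cell RNA-seq of zebra finch embryonic gonads at stage 28 of the Hamburger-Hamilton series, when germ cells have settled in the gonad and its somatic lineages begin to separate. There was 1 library per sex, each a pool of 7 embryos, with no treatment and no genetic change. The female library held 98701138 UMIs (unique molecular identifiers, each standing for a captured transcript) and 9457 called cells, and the male library 124217899 UMIs and 12478 cells, with medians of 8180 and 7685.5 UMIs per cell. The libraries shared 28 cell barcodes. Cells were grouped into 24 clusters without using 118 cell cycle genes. Of these, 17 were named by their markers into 9 classes, which the rebuilt names call germ-like, epithelial-like and so on. Values are CPM, the UMIs of a gene scaled to a total of 1000000 UMIs after summing over the cells of a class or status group in 1 library, and intervals cover counting error only. Because the female and male libraries were the replicates of every test between classes or between germ cell groups, the p-values measure the spread between these 2 libraries.

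Germ cells were split by whether UMIs of NANOG (ENSTGUG00000013121) and of SOX3, transcription factors of the early germ cell and neither a gene of the list, were found after each cell had been reduced at random to 5000 UMIs. This left 985 of 2058 germ-like cells, those with at least 5000 UMIs. The other germ-like cells, 387 female and 686 male, were too shallow and have no status. There were 126 female and 153 male NANOG+SOX3+ cells and 34 and 39 NANOG+SOX3- cells. NANOG-SOX3+ cells numbered 33 and 43, and NANOG-SOX3- cells 219 and 338. Over all UMIs, SOX3 was at 162 and 74.9 CPM in female and male NANOG+SOX3- cells, against 18.15 and 19.7 CPM in NANOG-SOX3- cells. NANOG was at 60.3 and 114 CPM in NANOG-SOX3+ cells, against 9.54 and 13.98 CPM in NANOG-SOX3- cells. A minus sign therefore means that a factor was not found after thinning, and such cells need not lack it. The groups had like depth, with medians of 20384.5 and 18753 UMIs per cell in female and male NANOG+SOX3+ cells and of 19693 and 17430 in NANOG-SOX3- cells.

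Core mitotic genes were low in the NANOG+SOX3+ germ cells of both sexes. Their summed level was 1553 CPM in female and 2004 CPM in male NANOG+SOX3+ cells, against 4740 and 5175 CPM in NANOG-SOX3- cells. The groups in which just 1 of the factors was found after thinning lay between. They were at 2593 and 3401 CPM in female and male NANOG+SOX3- cells and at 3551 and 4791 CPM in NANOG-SOX3+ cells. In each sex the 4 levels rose from NANOG+SOX3+ through NANOG+SOX3- and NANOG-SOX3+ to NANOG-SOX3- cells, with counting intervals apart. In edgeR's quasi-likelihood test, 22 of the 24 core genes tested were lower in NANOG+SOX3+ than in NANOG-SOX3- cells and 0 were higher (0 also at an unadjusted p of 0.05 and by DESeq2), where 19.1% of the 10554 genes tested were lower and 21.2% higher. The median log2 fold change of the core genes was -1.91, beside 0.03 over all genes tested. Fold changes are on edgeR's TMM scale, which sets the bulk of genes level, and can differ from the ratio of the CPM beside them.

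**Figure D1:**
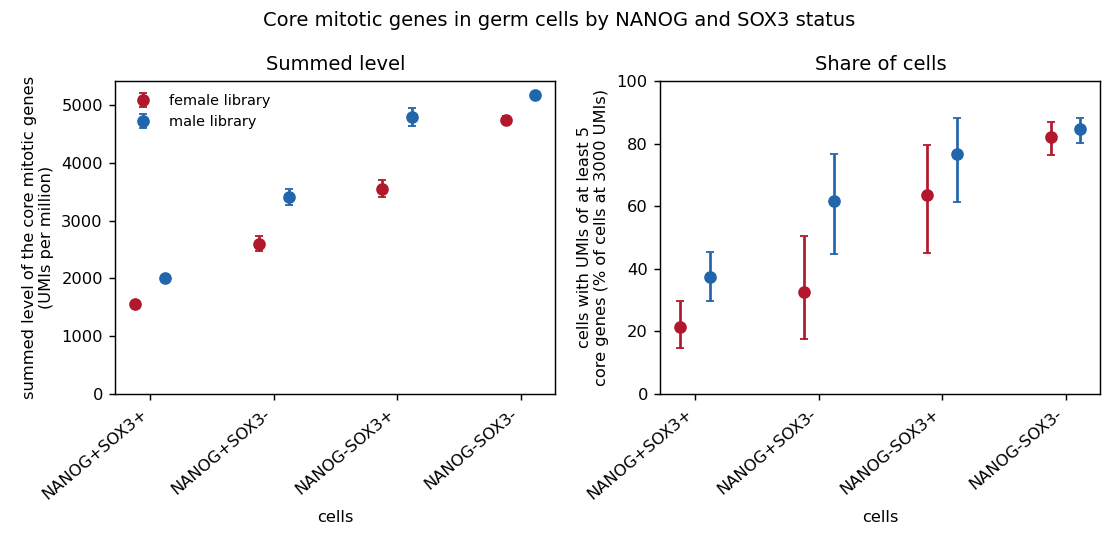
Summed level of the 25 core mitotic genes (left, CPM with exact 95% Poisson intervals) and share of cells with UMIs of at least 5 core genes after thinning to 3000 UMIs (right, percent with exact 95% binomial intervals) in germ-like cells by NANOG and SOX3 status, female and male libraries. In both panels NANOG+SOX3+ cells are lowest (1553 and 2004 CPM) and NANOG-SOX3- cells highest (4740 and 5175 CPM).

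PLK1, the Polo kinase that drives entry into mitosis and cytokinesis, had the lowest fold change of all members. It was at 14.8 CPM in female and 23.4 CPM in male NANOG+SOX3+ cells, against 148 and 157 CPM in NANOG-SOX3- cells, a log2 fold change of -3.21 ± 0.32 (SE, adjusted p = 0.000158). BUB1, a checkpoint kinase of the kinetochore, was at 8.95 and 15.4 CPM in NANOG+SOX3+ cells, against 79.6 and 105.5 CPM in NANOG-SOX3- cells (-3.13 ± 0.36, adjusted p = 0.000265). For both kinases the groups were far apart in each library, and the cells in which just 1 factor was found held intermediate levels. PLK1 was at 60.7 and 102 CPM in NANOG+SOX3- cells and at 70.6 and 134 CPM in NANOG-SOX3+ cells.

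TOP2A, the topoisomerase that untangles sister DNA strands before they part, was at 43.6 and 62.9 CPM in female and male NANOG+SOX3+ cells, against 414 and 344 CPM in NANOG-SOX3- cells (log2 fold change -3.05 ± 0.21, adjusted p = 4.05e-05). UBE2C, the ubiquitin-conjugating enzyme that works with the anaphase-promoting complex, was at 12.1 and 29.5 CPM, against 142 and 135 CPM in NANOG-SOX3- cells (-2.94 ± 0.36, adjusted p = 0.000336). Each of these 2 genes was at least 4 times lower in NANOG+SOX3+ cells of either library.

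CDK1, the kinase at the centre of the process, differed less, with 85.2 and 147 CPM in NANOG+SOX3+ cells and 319 and 296 CPM in NANOG-SOX3- cells (-1.63 ± 0.27, adjusted p = 0.00133). MKI67, which coats mitotic chromosomes and is the standard marker of cycling cells, was at 108 and 154 CPM in NANOG+SOX3+ cells, against 473 and 502 CPM in NANOG-SOX3- cells (-2.12 ± 0.17, adjusted p = 7.4e-05). KIF20A, a kinesin of the central spindle, was at 34.6 and 47.2 CPM, against 149 and 158 CPM (-2.13 ± 0.29, adjusted p = 0.000579). All 3 were lower in NANOG+SOX3+ cells of both libraries without overlap.

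The kinetochore's microtubule-binding pair fell by a smaller amount. NUF2 was at 110.1 and 104 CPM in NANOG+SOX3+ cells and at 309 and 286 CPM in NANOG-SOX3- cells (-1.70 ± 0.16, adjusted p = 0.000104). NDC80, its partner, was at 76.3 and 69.3 CPM, against 163 and 158 CPM (-1.37 ± 0.13, adjusted p = 0.000138). CKS2, a small subunit that binds CDK1, had 132 CPM in female and 305 CPM in male NANOG+SOX3+ cells, against 372 and 820.1 CPM in NANOG-SOX3- cells (-1.67 ± 0.57, adjusted p = 0.0413), and here the male NANOG+SOX3+ and the female NANOG-SOX3- levels were close.

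Not every core gene followed. KIF20B, a kinesin of cytokinesis, was at 235 and 239.7 CPM in NANOG+SOX3+ cells and at 262 and 259 CPM in NANOG-SOX3- cells, with an adjusted p of 0.0595. CDC25B, a phosphatase that activates CDK1, was below 20 CPM in every group and had an adjusted p of 0.142. With the library as a block, an alternative fit in which each library is compared with itself, all 24 core genes tested were called lower. The share of all genes called in that fit is not given here. KIF18A and KIF15, kinesins of chromosome alignment and of the spindle, were called lower with small changes of -0.55 ± 0.18 (adjusted p = 0.0353) and -0.86 ± 0.14 (adjusted p = 0.00131). For KIF18A the log2 ratio of CPM, with 5 CPM added and no TMM, was smaller, at -0.30 in female and -0.33 in male cells. KIF18B had too few UMIs to be tested.

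**Figure D2:**
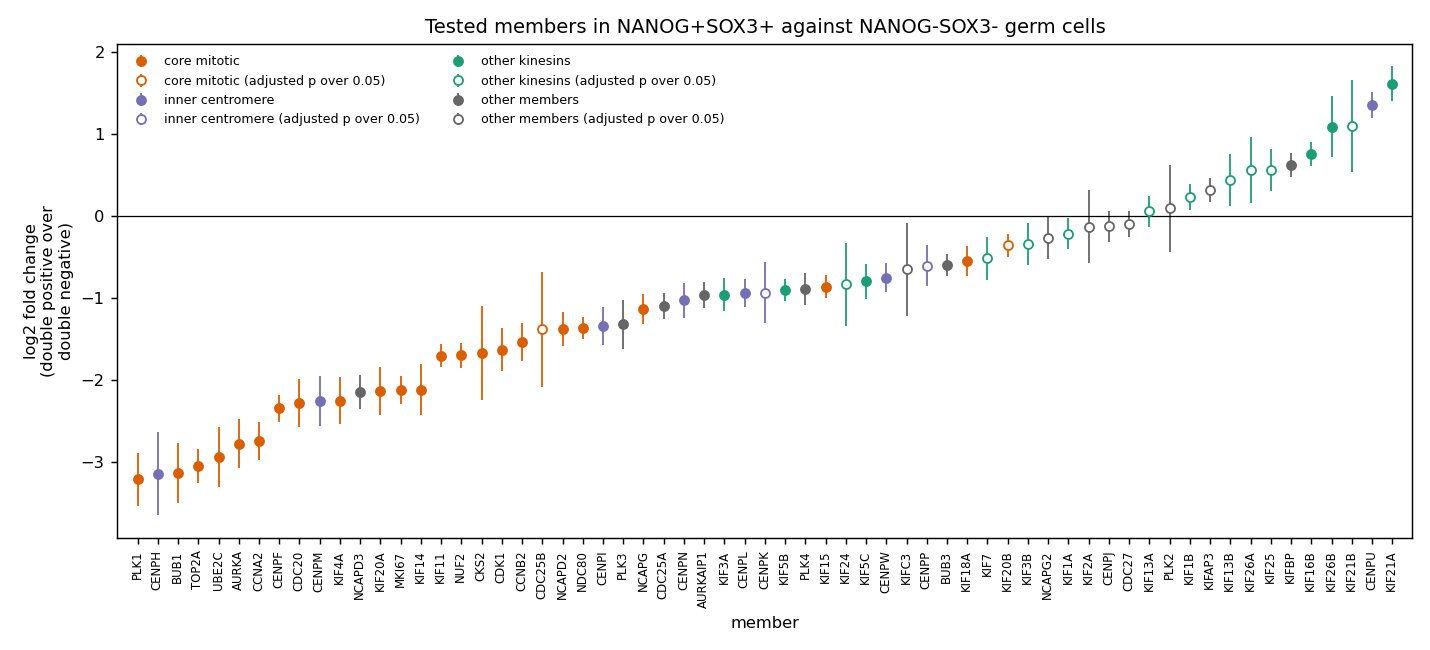
Log2 fold change of each of the 63 tested members in NANOG+SOX3+ (double positive) over NANOG-SOX3- (double negative) germ-like cells (edgeR, bars are SE), ordered by size and coloured by list; open symbols had an adjusted p over 0.05. The core mitotic genes fill the left side, down to PLK1 at -3.21, while KIF21A at 1.61 and CENPU at 1.35 stand at the right end.

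Among the inner centromere genes, which encode proteins of the inner kinetochore, 6 of 9 were lower and 1 was higher. Their median log2 fold change was -0.94, and 19.1% of all genes tested were lower and 21.2% higher. CENPH was at 13.6 and 30.8 CPM in NANOG+SOX3+ cells, against 136 and 204 CPM in NANOG-SOX3- cells (-3.14 ± 0.51, adjusted p = 0.00127). CENPU went the other way: it was at 192 and 183 CPM in NANOG+SOX3+ cells, against 67.7 and 58.0 CPM in NANOG-SOX3- cells (1.35 ± 0.16, adjusted p = 0.000275). CENPU encodes a centromere protein that recruits PLK1, the gene with the largest fall, and its levels in the intermediate groups, 149 and 107 CPM in NANOG+SOX3- cells and 94.1 and 77.2 CPM in NANOG-SOX3+ cells, ran in the reverse order of those of the core genes.

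The other kinesins had no common direction, with 3 of 16 higher, 3 lower and a median of 0.14. These counts were near the shares of all genes tested, 21.2% higher and 19.1% lower. KIF21A, which restrains microtubule growth at the cell cortex, had the highest fold change of all members, with 163 and 180.4 CPM in NANOG+SOX3+ cells and 54.0 and 42.7 CPM in NANOG-SOX3- cells (1.61 ± 0.21, adjusted p = 0.000458). KIF16B, a motor of endosomes, was at 102 and 102 CPM, against 52.1 and 51.8 CPM (0.75 ± 0.15, adjusted p = 0.00325). KIF26B, the remaining kinesin called higher, stayed below 20 CPM, and KIF3A, KIF5B and KIF5C were called lower with changes between -0.96 and -0.80.

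Of the 14 other members tested, 6 were lower and 1 was higher, beside 19.1% and 21.2% of all genes tested. KIFBP, a protein that binds kinesins and blocks them from microtubules, was the 1 higher, at 139 and 118 CPM in NANOG+SOX3+ cells and 69.8 and 73.2 CPM in NANOG-SOX3- cells (0.62 ± 0.14, adjusted p = 0.00796). Those lower were NCAPD3 of the second condensin complex (-2.15), PLK3 (-1.32), CDC25A (-1.10), AURKAIP1 (-0.97), PLK4 of centriole duplication (-0.89) and the checkpoint protein BUB3 (-0.60). Over all 63 members tested, 37 were lower and 5 higher, beside the same shares of all genes. With the library as a block 43 were lower and 8 higher, again without a share of all genes for that fit.

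Genes of the same pathway outside the list moved in the same direction. Of 27 found among 46 listed, 23 were lower and the median was -1.71. They included the checkpoint protein MAD2L1, at 37.7 and 61.9 CPM in NANOG+SOX3+ cells and 257 and 209 CPM in NANOG-SOX3- cells (-2.44 ± 0.22, adjusted p = 9.58e-05). BIRC5, of the chromosomal passenger complex, was at 45.1 and 57.2 CPM, against 227 and 182 CPM (-2.22 ± 0.21, adjusted p = 0.000119). FOXM1, the transcription factor that switches on many mitotic genes, was at 15.6 and 23.1 CPM, against 55.1 and 54.0 CPM (-1.71 ± 0.24, adjusted p = 0.000638). ZW10, ECT2, SMC2 and DLGAP5 were the 4 not called.

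DNA replication genes were lower as well, 14 of 15 tested with a median of -1.03, and MCM2 was the 1 not called. Of 8 tested genes associated with cell cycle arrest, 1 was higher and 3 lower, beside 21.2% and 19.1% of all genes tested. The one higher was CDKN1B, an inhibitor of cyclin-dependent kinases, at 118 and 117 CPM in NANOG+SOX3+ cells and 72.6 and 67.4 CPM in NANOG-SOX3- cells (0.52 ± 0.14, adjusted p = 0.0147).

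The 7 germ markers found summed to 4303 and 4716 CPM in NANOG+SOX3+ cells and to 4475 and 4939 CPM in NANOG-SOX3- cells. The 6 supporting cell markers found summed to 141 and 260 CPM in NANOG+SOX3+ cells, against 72.6 and 138 CPM in NANOG-SOX3- cells, with FOXL2 at 0 UMIs in the NANOG+SOX3+ cells. Most of the sum was DMRT1, at 129 and 243 CPM in NANOG+SOX3+ cells, against 50.5 and 108 CPM, while SOX9 was at 5.45 and 14.4 CPM, against 14.7 and 25.1 CPM. The 3 erythrocyte markers stood at 399 and 557 CPM in NANOG+SOX3+ cells and at 347 and 2387 CPM in NANOG-SOX3- cells, the last being the male library. The part of these RNAs in the core gene difference was not tested. An alternative subtracted 10% of each group's summed UMIs in the proportions of free RNA, and its call counts were close to the main ones. It treats all cells of a group alike and does not measure RNA that differs from cell to cell. Free RNA itself, from barcodes without a cell, held the core genes at 1814 CPM (female) and 2527 CPM (male). Germ-like cells under 5000 UMIs, which have no status here, held them at 3669 and 4226 CPM.

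The low level in NANOG+SOX3+ cells went with fewer cells that carried many core genes and with fewer UMIs in those that did. After each cell was thinned to 3000 UMIs, 27 of 126 female (21.4%, exact 95% interval 14.6 to 29.6) and 57 of 153 male (37.3%, 29.6 to 45.4) NANOG+SOX3+ cells had UMIs of at least 5 core genes. In NANOG-SOX3- cells the shares were 180 of 219 (82.2%, 76.5 to 87.0) and 286 of 338 (84.6%, 80.3 to 88.3). The cells so counted held a mean of 10.7 core UMIs in NANOG+SOX3+ cells of either sex, against 16.0 and 16.9 in NANOG-SOX3- cells. The share is a cut through a range: 37 female and 50 male NANOG+SOX3+ cells had just 4 or 5 core genes, and without thinning 97.6% and 96.1% of NANOG+SOX3+ cells and 100% and 99.7% of NANOG-SOX3- cells passed.

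Germ-like cells also differed from somatic cells in how the core UMIs were spread over cells. Among germ-like cells thinned to 3000 UMIs, 57.9% of female and 69.7% of male cells had at least 5 core genes, and 1.13% and 0.624% had no core UMI at all. In the epithelial-like class 19.4% and 23.5% had at least 5 and 32.7% and 20.4% had none, and in the interstitial-like class 12.6% and 22.7% had at least 5 and 43.3% and 25.0% had none. The somatic cells that did carry 5 or more core genes held a class-dependent number of UMIs of them, with means of 23.2 and 23.4 in epithelial-like, 24.0 and 24.2 in interstitial-like and 28.0 and 27.6 in supporting-like cells, but 13.4 and 13.6 in steroidogenic-like and 9.92 and 11.9 in erythrocyte-like cells, against 15.2 and 16.1 in germ-like cells. Thinning left out 355 female and 618 male germ-like cells that were too shallow. The order of the female and male shares within a class is a value of 1 library each.

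Across single cells thinned to 5000 UMIs, the core genes varied together and the other kinesins as a list did not follow them. The Pearson correlation of a core gene with the sum of the others had a median of 0.46 in 985 germ-like cells, 0.59 in 5183 epithelial-like, 0.62 in 3396 interstitial-like and 0.63 in 1688 supporting-like cells. For the other kinesins the medians were between -0.04 and 0.02 in these classes and the endothelial-like class. Single ones differed, in germ-like cells from -0.26 for KIF21A to 0.21 for KIF5B. The cells share libraries and depth, and these values are given as a description.

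Across the 9 classes, core levels were highest in germ-like cells in both libraries. Their sum was 3490 CPM in female and 4163 CPM in male germ-like cells. Supporting-like cells had 3340 and 2818 CPM, neural-like cells 3061 and 2271 CPM, endothelial-like cells 2550 and 3521 CPM, macrophage-like cells 2448 and 2310 CPM, epithelial-like cells 2248 and 2678 CPM, and interstitial-like cells 1567 and 2697 CPM. Over both libraries the range of supporting-like cells lay above those of macrophage-like, epithelial-like and interstitial-like cells, while the ranges of neural-like and endothelial-like cells overlapped with that of supporting-like cells and with each other. Steroidogenic-like cells were below them, at 783 and 1031 CPM, and erythrocyte-like cells had 296 and 315 CPM, with 404700 and 414500 CPM taken by the 3 erythrocyte markers, globin among them.

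**Figure D3:**
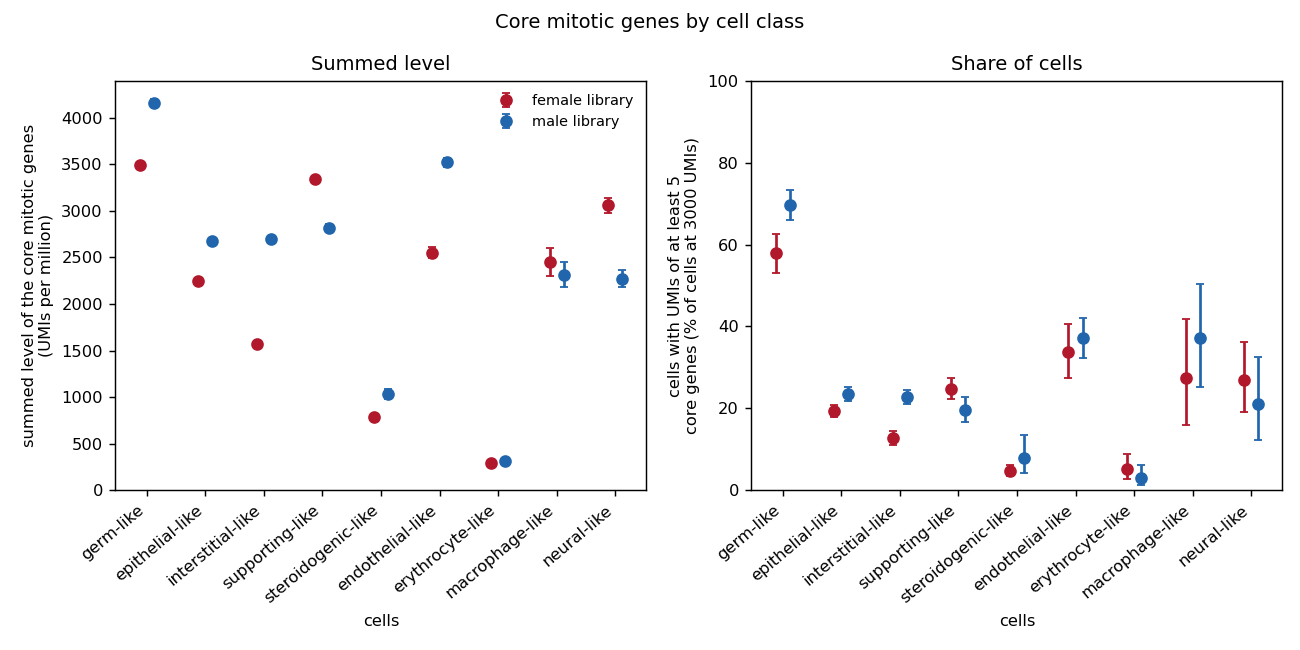
Summed level of the 25 core mitotic genes (left, CPM with exact 95% Poisson intervals) and share of cells with UMIs of at least 5 core genes after thinning to 3000 UMIs (right, percent with exact 95% binomial intervals) in each class, female and male libraries. Germ-like cells are highest in both panels, at 3490 and 4163 CPM, and steroidogenic-like and erythrocyte-like cells lowest.

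Each class was then set against the mean of the other 8. In germ-like cells 14 of 24 core genes were higher and 0 lower (0 also at an unadjusted p of 0.05 and by DESeq2), with 35.4% of the 13641 genes tested higher and 25.8% lower, and a core median of 0.56 beside 0.12 over all genes. By library sizes in place of TMM (a scaling that sets the bulk of genes level), 23 were higher and the median of all genes was 0.73. With the library as a block 18 were higher and 1 was lower, and 1 was also lower at a clustering resolution of 0.4. For these and the other alternative settings named below, the shares of all genes called are not given here. KIF18A, which aligns chromosomes on the spindle, was at 188 and 202 CPM in germ-like cells, against 15.6 to 101 CPM in the classes outside erythrocytes (1.59 ± 0.14, adjusted p = 2.47e-07). KIF20A was at 99.7 and 119.7 CPM in germ-like cells and between 5.49 and 69.5 CPM in those classes (1.36 ± 0.18, adjusted p = 1.06e-05). NDC80 was at 127 and 126 CPM, with at most 75.4 CPM in the other classes (1.30 ± 0.16, adjusted p = 5.4e-06). CDK1, UBE2C and TOP2A were not called in this class. CDK1 was at 232 and 255 CPM there, and at 298 and 201 CPM in neural-like cells.

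Of the 9 inner centromere genes 4 were higher in germ-like cells (CENPL, CENPM, CENPN and CENPW) and 2 lower (CENPU and CENPK), with a median of 0.32. These counts were near the shares of all genes tested, 35.4% higher and 25.8% lower. CENPL was at 92.2 and 85.0 CPM in germ-like cells and at most 33.7 CPM elsewhere (2.19 ± 0.15, adjusted p = 2e-08). CENPM was at 132 and 137 CPM, and its next highest class was macrophage-like, at 62.4 and 47.5 CPM (2.19 ± 0.14, adjusted p = 8.46e-09). CDC25A, the phosphatase that activates the kinases of the earlier cell cycle, was at 103 and 117 CPM in germ-like cells and at most 56.5 CPM elsewhere (1.37 ± 0.13, adjusted p = 3.68e-07). In all, 29 of 65 members were higher in germ-like cells and 13 lower, beside the same 35.4% and 25.8% of all genes.

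Endothelial-like cells had 16 core genes higher and 0 lower (0 also at an unadjusted p of 0.05 and by DESeq2) with a median of 0.65, against 18.7% of all genes higher, 13.3% lower and a median of 0.00. PLK1 was at 91.3 and 118 CPM in these cells (1.01 ± 0.18, adjusted p = 0.000521) and CCNA2, the cyclin of DNA synthesis and early mitosis, at 27.4 and 41.2 CPM (0.90 ± 0.22, adjusted p = 0.00501). The count was 8 or 9 under each of 3 other ways of clustering. In supporting-like cells, the lineage of future Sertoli and granulosa cells, 6 core genes were higher, with 16.2% of all genes higher and 9.75% lower. CDC20, the activator of the anaphase-promoting complex, was at 192 and 145 CPM there (0.95 ± 0.17, adjusted p = 0.000765). That count was 20 with 30 principal components and 21 when the cell cycle genes were kept in the clustering. The class did not hold every cell with supporting cell markers. In its clusters K6 and K18 SOX9 was at 93.1 and 73.0 CPM, DMRT1 at 194 and 160 CPM and PAX2 at 131 and 106 CPM. The unnamed clusters K5 and K20, nearly all male cells, had SOX9 at 403 and 259 CPM and DMRT1 at 529 and 256 CPM. PAX2 was at 12.45 and 9.88 CPM in K5 and K20. Neural-like cells had 6 core genes higher, among them CDK1 at 298 and 201 CPM (0.77 ± 0.17, adjusted p = 0.00208), with 18.5% of all genes higher and 14.0% lower.

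Steroidogenic-like cells, which make sex hormones, were the reverse, with 21 of 24 core genes lower and 0 higher (0 also at an unadjusted p of 0.05 and by DESeq2), where 12.8% of all genes were lower and 18.2% higher. The core median was -2.28 and that of all genes 0.04. CCNA2 was at 2.95 and 2.57 CPM in these cells and between 10.2 and 44.7 CPM in the other classes outside erythrocytes (-3.18 ± 0.35, adjusted p = 5.96e-06). KIF20A was at 5.49 and 9.63 CPM (-2.92 ± 0.30, adjusted p = 3.72e-06) and UBE2C at 12.1 and 21.2 CPM (-2.64 ± 0.26, adjusted p = 2.41e-06), and 4.57% of female and 7.89% of male cells had UMIs of at least 5 core genes. CCNB2, CKS2 and CDC25B were the 3 core genes not called, and CCNB2 was at 205 and 184 CPM, near its level in other classes.

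The low steroidogenic level differed with the clustering. Although cell cycle genes were left out of the clustering, 3 clusters still gathered cells with high core levels, 8826 CPM in an epithelial-like, 8950 CPM in an interstitial-like and 10080 CPM in a supporting-like cluster. The last of these held CYP17A1, the steroidogenic enzyme, at 415 CPM, beside 2202 CPM in the main steroidogenic-like cluster and 140.5 CPM in the main supporting-like one. The remaining epithelial-like, interstitial-like and supporting-like clusters held the core genes at 464.9 to 646.5 CPM. That is no higher than the main steroidogenic-like cluster, at 680.5 CPM, and the smaller steroidogenic-like cluster held 1923 CPM. The part of the clusters with high core levels in the class difference was not tested. At a coarser clustering (resolution 0.4) no supporting-like class was found, and 8 core genes were called lower in steroidogenic-like cells, 1 higher, with a median of -0.36.

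In epithelial-like cells 0 core genes were called in either direction (0 also at an unadjusted p of 0.05 and by DESeq2), beside 20.1% of all genes higher and 11.4% lower. By library sizes 9 were higher, and at a resolution of 0.4 the class had 8 lower. Interstitial-like cells had 0 higher (0 also at an unadjusted p of 0.05 and by DESeq2) and 2 lower, CCNA2 and CCNB2, beside 21.1% and 11.7%. By library sizes 2 were higher and 0 lower, and in the male library alone both genes were above the mean of the other classes. Macrophage-like cells had 3 higher (AURKA, KIF11 and KIF14) and 0 lower (0 also at an unadjusted p of 0.05 and by DESeq2), beside 15.4% and 13.4%. AURKA was not called with the library as a block (adjusted p = 0.0877). Erythrocyte-like cells had 1 higher, beside 15.1% of all genes higher and 14.9% lower: CCNA2, at 7.66 and 6.20 CPM, was called higher on the TMM scale (1.49) and lower by library sizes (-1.43), a scale on which the median of all genes was -3.09 and 23 core genes were lower.

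**Figure D4:**
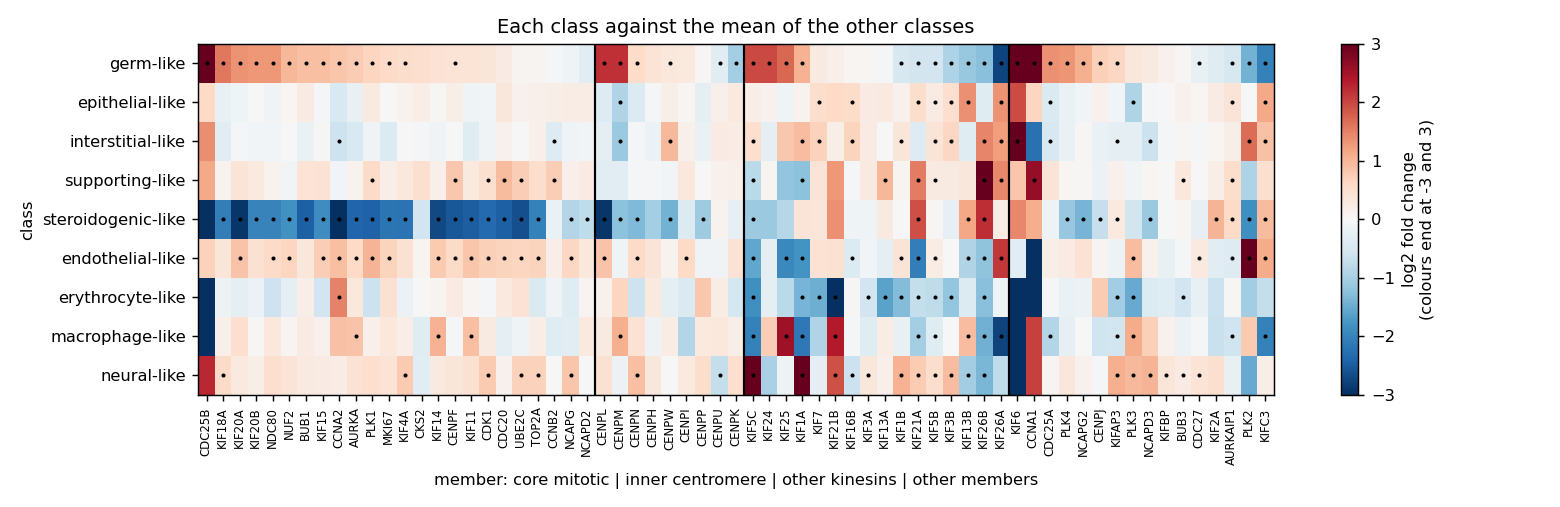
Log2 fold change of each of the 65 tested members (columns, by list, ordered by the germ-like value) in each class against the mean of the other 8 (rows, edgeR); dots mark adjusted p of at most 0.05. The core block is raised in germ-like and endothelial-like cells and lowered in steroidogenic-like cells (median -2.28), whereas single kinesins outside it change class by class, up to 4.60 for KIF5C in neural-like cells.

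Kinesins outside the core list differed between classes, most of them called higher in more than 1 class. In neural-like cells KIF5C, the axonal heavy chain of conventional kinesin, was at 304 and 307 CPM with at most 84.3 CPM in the other classes (4.60 ± 0.14, adjusted p = 3.62e-12). KIF1A, the motor of synaptic vesicle precursors, was at 211 and 182 CPM in neural-like cells and at most 37.1 CPM in others (4.11 ± 0.15, adjusted p = 3.64e-11). KIFAP3, an adaptor of kinesin-2, was at 221 and 223 CPM (1.06 ± 0.08, adjusted p = 7.12e-08), though germ-like cells had 224 and 199 CPM. KIF5C was the kinesin with the largest increase in germ-like cells too, at 68.1 and 84.3 CPM (1.98 ± 0.15, adjusted p = 5.11e-08).

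KIF26B, an atypical kinesin of tissue shaping, was called higher in supporting-like, steroidogenic-like and interstitial-like cells. It was at 101 and 90.2 CPM in supporting-like cells (3.19 ± 0.15, adjusted p = 2.33e-09) and at 49.8 and 53.3 CPM in steroidogenic-like cells (2.22 ± 0.17, adjusted p = 2.17e-07). KIF21A was called higher in epithelial-like, neural-like, steroidogenic-like and supporting-like cells. It was at 433 and 277 CPM in steroidogenic-like cells (1.93 ± 0.15, adjusted p = 2.98e-07) and 353 and 221 CPM in supporting-like cells (1.53 ± 0.16, adjusted p = 4.72e-06). It was low in endothelial-like cells, at 27.4 and 31.1 CPM (-2.07 ± 0.23, adjusted p = 4.64e-06). KIF21A separated germ cells by status and somatic cells by class, and in the steroidogenic-like class it was high where the core genes were low.

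PLK2, a Polo-like kinase whose roles lie outside mitosis, was the member with the largest increase in endothelial-like cells, at 305 and 433 CPM, where interstitial-like cells came next at 59.6 and 99.3 CPM (4.27 ± 0.35, adjusted p = 2.14e-07). KIF26A was also highest there, at 196 and 105 CPM (2.13 ± 0.23, adjusted p = 4.56e-06), and it was at 8.29 and 10.2 CPM in germ-like cells (-2.75 ± 0.35, adjusted p = 8.63e-06). KIF13B led the 9 members raised in epithelial-like cells, at 116 and 99.6 CPM (1.38 ± 0.20, adjusted p = 7.98e-05). Those were 9 of 65 tested, beside 20.1% of all genes. In interstitial-like cells CENPW, a histone-fold protein of the centromere, was at 228 and 274 CPM (0.97 ± 0.11, adjusted p = 9.12e-06), above germ-like cells (217 and 182 CPM), although the core genes were not raised there.

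Female and male levels were compared within classes, with 1 library per sex and so without a test. Members on the Z chromosome are given first. Male birds have 2 Z chromosomes and females 1, and chromosome assignments came from RefSeq. The members assigned to Z were CKS2, CENPH, CENPK, KIF24, KIF2A and PLK2. CDC25B, a core gene, and CENPJ had no chromosome assigned, and whether they lie on Z is not known here. In germ-like cells, the female library held 283 CPM of CKS2 and the male library 664.5 CPM. CENPH, CENPK, KIF24 and KIF2A were also at least 1.5-fold higher in male, so that all 5 Z members with 20 CPM were, with a median log2 ratio of female over male of -0.90. Of the 48 members on other chromosomes 0 passed this fold in either direction, with a median of -0.03. Over all genes of germ-like cells 0.769% were higher in female and 4.61% in male. Of the 319 genes on Z, 249 were higher in male by this fold, with a median of -0.75.

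**Figure D5:**
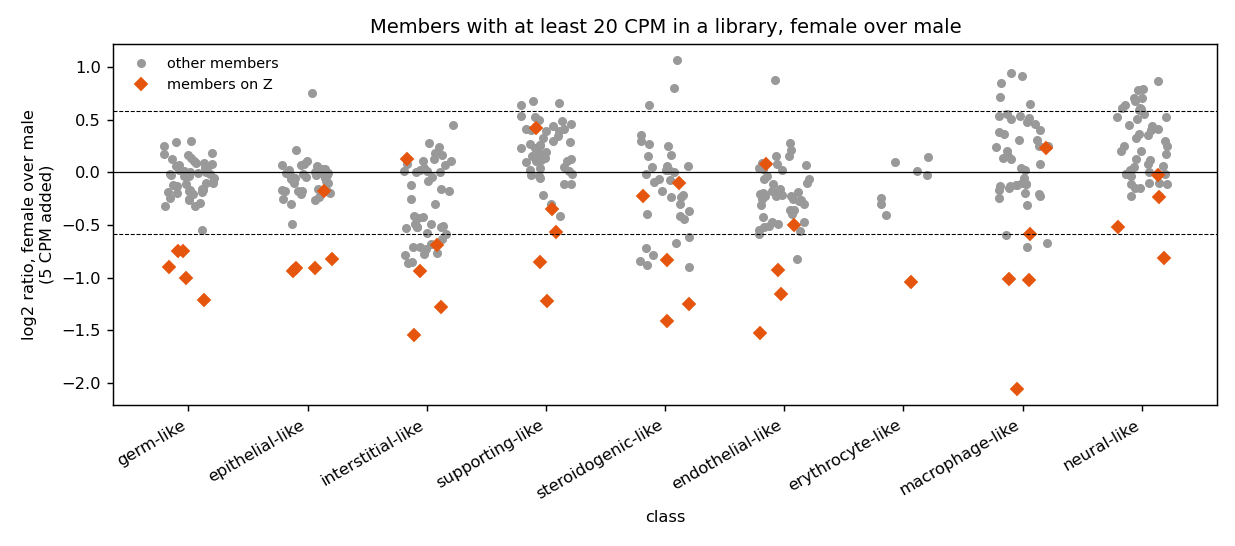
Log2 ratio of female over male (5 CPM added) of each member with at least 20 CPM in a library, by class; diamonds are members on Z and dashed lines mark 1.5-fold. In germ-like cells the 5 Z members lie below the lower line, with a median of -0.90, and the other members between the lines. Grey points shift down in interstitial-like cells and up in neural-like cells.

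The Z members did not behave alike in every class. KIF2A, a kinesin that takes microtubules apart, was at 78.4 CPM in female and 151 CPM in male germ-like cells. In interstitial-like cells it was at 133 and 121 CPM and in supporting-like cells at 159 and 117 CPM, with no male excess. CKS2 was at 144 CPM in female and 429 CPM in male interstitial-like cells, but at 352 and 448 CPM in supporting-like cells. CENPK, by contrast, was at least 1.5-fold higher in male in 7 of the 8 classes in which it reached 20 CPM.

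The core genes other than CKS2, none of them assigned to Z, differed between the libraries in some somatic classes. In interstitial-like cells 10 of 21 such genes with 20 CPM were at least 1.5-fold higher in male and 0 in female, with a median of -0.58. Beside them were 3.95% and 1.29% of all genes, which include those on Z, and 59 and 63 of 5390 autosomal genes. TOP2A was at 161 CPM in female and 296 CPM in male interstitial-like cells, and CDK1 at 113 and 196 CPM. The interstitial-like cluster with the high core level held 148 of 1426 female and 444 of 2401 male cells, and the part of this share in the difference was not tested. In neural-like cells, of which there were 159 female and 91 male, the order was the reverse. There 11 of 22 were higher in female and 0 in male, with a median of 0.57. Beside them were 3.91% and 5.8% of all genes, and 199 and 160 of 5285 autosomal genes.

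In supporting-like cells, which leave out K5 and K20, the median without CKS2 was 0.37. Past the fold were 1 of 22 core genes in female and 0 in male, beside 2.0% and 4.7% of all genes and 84 and 91 of 5350 autosomal genes. In steroidogenic-like cells, with 161 male cells, 7 of 13 were higher in male and 0 in female. Beside them were 7.43% and 4.29% of all genes and 240 and 202 of 5319 autosomal genes. Endothelial-like cells had 1 of 22 higher in male and 0 in female, beside 3.97% and 1.33% of all genes and 60 and 62 of 5214 autosomal genes. Epithelial-like cells had 0 of 20 in either direction, beside 4.19% and 1.36%, and 49 and 58 of 5352 autosomal genes. Macrophage-like cells had 2 of 22 in each direction, beside 11.9% and 8.59%, and 509 and 445 of 5325 autosomal genes. In erythrocyte-like cells it was 0 of 5, beside 4.05% and 1.03%, and 19 and 9 of 1073 autosomal genes. CKS2 itself was past the fold in male in the interstitial-like, endothelial-like, epithelial-like, macrophage-like and erythrocyte-like classes. With 1 library each, sex, the pooled embryos and the preparation of the library cannot be told apart.

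The members were also compared between the libraries within the germ cell groups. In NANOG-SOX3- cells 4 of 5 Z members were at least 1.5-fold higher in male, beside 233 of 296 genes on Z. Of the 50 members on other chromosomes 0 were, beside 27 of 5553 autosomal genes and 4.71% of all genes. In female 0 of 56 members were higher, beside 0.986%. In NANOG+SOX3+ cells 6 of 6 Z members were higher in male, beside 287 of 348 genes on Z. Off Z it was 4 of 46, beside 101 of 6090 autosomal genes and 6.26% of all genes. In female 0 of 53 members were higher, beside 1.46%. The smaller groups had more members off Z past the fold. In NANOG+SOX3- cells 10 of 46 of these were higher in male and 3 in female. Beside them were 9.62% and 11.4% of all genes and 404 and 713 of 6110 autosomal genes. In NANOG-SOX3+ cells it was 8 of 48 and 4, with 7.97% and 10.2% of all genes and 281 and 626 of 5948 autosomal genes. Without CKS2 the summed core genes were at 4368 CPM in female and 4355 CPM in male NANOG-SOX3- cells and at 1421 and 1700 CPM in NANOG+SOX3+ cells. CKS2 was at 132 CPM in female and 305 CPM in male NANOG+SOX3+ cells and at 372 and 820.1 CPM in NANOG-SOX3- cells, so that it was lower in the double-positive cells of each sex.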

How the data were processed

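Gonads of female and male embryos, pooled by sex, gave 1 library each. The authors deposited raw UMI counts per gene and barcode made with Cell Ranger 5.0.0 on the zebra finch reference bTaeGut1_v1 with Ensembl identifiers, before normalization. The labels do not tie the barcode suffixes to a sex: following the study's supplement, suffix 2 was read as the female library and suffix 1 as the male one. Cells were called anew by repeating Cell Ranger's steps (FDR 0.01, at least 200 genes), and clustered with scanpy 1.11.5 under python 3.11.15 (2000 variable genes, 20 components, resolution 0.8). A class needed 3 markers raised 1.5-fold and clusters under 50 cells stayed unnamed, a limit set after the data were seen. Scrublet marked 0 cells, which made it void, so doublets stayed in. Counts summed per library and group went into edgeR's quasi-likelihood test (version 4.0.16 under R 4.3.3, genes kept by filterByExpr, TMM scaling), with Benjamini-Hochberg adjustment over all genes tested and calls at 0.05; DESeq2 1.42.0 was an alternative. Code was tested on simulated data.

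Sums of 1 library come from the same embryos and are paired. Their deviations correlated at 0.07 to 0.60 between classes and 0.27 to 0.45 between germ groups. The main fits held class or status only and did not use this pairing. An alternative fit took the library as a replicate block. Intervals are 95% exact, ratios of sexes have 5 CPM added, and free RNA came from barcodes with at most 100 UMIs. RefSeq chromosomes are from another assembly and were matched by symbol for 64 members, of which 6 are on Z.

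Members, lists and alternatives were chosen with earlier results of these data known. Named are 10 members set by the rule of the list or the study, and per contrast up to 5 members with the highest and 5 with the lowest fold change among those called with at least 20 CPM in both libraries of 1 side. The Z members were named by chromosome, and KIF20B, CDC25B, KIF15, KIF18B, the remaining called members and genes outside the list were named after their values were seen.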

Additional observations from a re-analysis of the deposited data

Results flagged for a closer look

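The summed core genes stood higher in female than in male in supporting-like cells (log2 ratio of female over male 0.25) and in neural-like cells (0.43). They stood lower in female in germ-like (-0.25), epithelial-like (-0.25), interstitial-like (-0.78), steroidogenic-like (-0.40) and endothelial-like cells (-0.47), with counting intervals apart in each of these 7 classes. The sum holds CKS2, the 1 core gene assigned to Z. In an alternative chosen after seeing the data, without CKS2, the ratio was 0.33 in supporting-like, 0.52 in neural-like, -0.13 in germ-like, -0.15 in epithelial-like, -0.67 in interstitial-like, -0.45 in steroidogenic-like and -0.36 in endothelial-like cells. Macrophage-like cells had a ratio of 0.08 with CKS2, with intervals not apart. Without CKS2 they too stood higher in female, at 2303 and 2011 CPM (0.20), with intervals apart. With 1 library per sex the difference between classes was not tested. KIF2A went opposite ways in the germ cell contrast of each library when taken as a ratio of CPM without TMM. The log2 ratio of NANOG+SOX3+ over NANOG-SOX3- cells was -0.33 in female and 0.29 in male cells. Each was past an exact binomial test of its counts at 0.05, which covers counting error only. On that scale the median of all genes was itself positive in this contrast. In the edgeR test, on the TMM scale, KIF2A was not called (-0.13 ± 0.45, adjusted p = 0.839). The difference between the libraries was not tested.

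Core genes were also present in the 7 clusters that stayed unnamed and entered no comparison. The shallow clusters K4, K8 and K15 held 2788, 2412 and 2376 CPM of them. K5, with 7 female and 1509 male cells, held 2323 CPM, and COL8A1, PRSS35, INHA, INHBB and DMRT1 were among its leading genes. Of its male cells, thinned to 3000 UMIs, 16.3% had UMIs of at least 5 core genes. K20, with 9 female and 243 male cells, held 2469 CPM, K23, with 0 female and 137 male cells, 2017 CPM, and K24, with 24 and 15 cells, 2585 CPM.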

How the results depend on the processing

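The fall of the core genes in NANOG+SOX3+ cells kept its direction under every alternative run, with 20 to 24 genes lower and 0 higher. Among these runs, a minimum of 2000 UMIs per cell could change nothing, since all cells with a status had at least 5000. The class counts moved. Shares of all genes called are given for the main fits only. By library sizes in place of TMM, members higher in NANOG+SOX3+ cells were 8 (5 with TMM; 8 also with the replicate block), and core genes higher were 23 in germ-like (14), 18 in supporting-like (6) and 14 in neural-like cells (6). That scaling moved the median of all genes from 0.03 to 0.26 in the germ cell contrast, from 0.12 to 0.73 in germ-like and from -0.21 to -3.09 in erythrocyte-like cells. Core genes higher in endothelial-like cells were 8 with 30 components, 8 at resolution 0.4 and 9 at resolution 1.2 (16), those in supporting-like cells 20 with 30 components and 21 with cell cycle genes kept in, and those in neural-like cells 2 at resolution 1.2. Core genes lower in steroidogenic-like cells were 8 at resolution 0.4 (21), where no supporting-like class gave a value. Beside these, the replicate block lost 2 calls of named genes, AURKA and KIF26B (adjusted p = 0.0877 and 0.0657) in macrophage-like cells, and no other.

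With 1 library left out no residual degrees of freedom remained, so only log2 ratios of CPM were had, with 5 CPM added and no TMM. They covered all 25 core genes and are on another scale than the edgeR values. Their distance from the main medians is therefore not a measure of what leaving out a library did. The core median ranged from -1.48 to -1.41 in the germ cell contrast, 0.97 to 1.15 in germ-like, 0.55 to 0.90 in endothelial-like, 0.29 to 0.82 in supporting-like, 0.18 to 0.84 in neural-like and -1.73 to -1.23 in steroidogenic-like cells. In interstitial-like cells CCNA2 ranged from -0.68 to 0.037, CDC25A from -0.37 to 0.042 and CCNB2 from -0.40 to 0.26, positive without the female library. CKS2 ranged from -0.53 to 0.26 in steroidogenic-like cells and was 0.21 there at resolution 0.4. CCNA2 in erythrocyte-like cells ranged from -1.14 to -0.97 and was -1.43 by library sizes, all without TMM. KIF5C in supporting-like cells was 0.25 with free RNA subtracted. The causes were not tested. Without CKS2, an alternative chosen after seeing the data, the female over male ratio of the summed core genes was 0.059 in erythrocyte-like cells (-0.09 with it) and 0.0042 in NANOG-SOX3- cells (-0.13 with it).

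Of all pairs of a member and a class, those past 2-fold were 1 higher in female and 13 higher in male (24 and 47 past 1.5-fold), and 14 were higher in female with 20 CPM added. These counts include the Z members. The shares of all genes past 1.5-fold are those given by class above, and no such share was had at 2-fold. Shares of female and male NANOG+SOX3+ cells were 62.7% and 73.9% with at least 3 core genes, 7.14% and 13.7% with at least 8, 7.14% and 13.7% thinned to 1500 UMIs, 64.75% and 77.85% thinned to 6000 UMIs and 97.6% and 96.1% without thinning. Those of NANOG-SOX3- cells were 95.9% and 96.15%, 59.8% and 56.2%, 55.7% and 54.1%, 97.7% and 97.6%, and 100% and 99.7%. Counting intervals do not cover the spread between pools of embryos, and 1 library per sex limits every comparison of the sexes.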
